A study of Mus musculus with 55 samples.

Results

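This report describes pyramidal neurons of the mouse prefrontal cortex that the submitters labelled D1 cells, compared between Fmr1 knockout and wild-type animals. The members were chosen by their labels alone: 6 knockout D1 cells and 15 wild-type D1 cells that passed the submitters' quality control, 21 of the 54 cells that passed in the series. The knockout cells carry the genotype label Fmr1-/y, the notation for a male whose X-linked Fmr1 is disrupted, and the wild-type cells are labelled as having no knockout. The cytosol of each neuron was drawn into a whole-cell patch pipette, and each library was made from that 1 cell with the Nextera XT kit. 1 further knockout D1 cell that failed quality control was left out.

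The knockout cells came from animals of 31 days (1 cell) and 32 days (5 cells). The wild-type cells came from animals of 28 days (3 cells), 29 days (4), 30 days (3), 31 days (3) and 34 days (2). No wild-type D1 cell was of 32 days, so that age and genotype can be set apart only at 31 days. The allele, the strain, the way a cell was recognised as D1 and the animal each cell came from were not found in the labels. All cells of a genotype could share an animal, so each genotype counts as 1 sample: no p-value is given, and an SD is a description of the spread between cells. The D2 cells of the same series are 7 knockout cells, all of 32 days, and 26 wild-type cells of 29 to 35 days. They are used only as cells that played no part in choosing the genes named here.

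Fmr1 encodes FMRP, an RNA-binding protein of neurons that sits on many long synaptic messenger RNAs and restrains their translation on polyribosomes. Its loss causes fragile X syndrome, and in mice it is studied through enlarged responses of group 1 metabotropic glutamate receptors, altered ion channels and immature dendritic spines. D1 and D2 name the dopamine receptor classes that raise and lower cAMP, and in the prefrontal cortex they are used to divide pyramidal neurons of the deep layers.

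The promoter-side sequences of 3 genes are shown: Fmr1, because it is the knocked-out gene, and Sclt1 and Celf5, because each of their 6 knockout cells lay above each of the 15 wild-type cells. Taf2 was the other gene of that kind. Each sequence holds the 250 bases before the gene's start in RefSeq, build GRCm38.p6, on the gene's own strand, at chrX:68678291-68678540 (plus strand), chr3:41742515-41742764 (minus strand) and chr10:81482700-81482949 (minus strand). Capitals mark the motifs that were searched for on both strands: the E-box CACGTG, the GC box GGGCGG, the CCAAT box CCAAT, the TATA box TATAAA, the cAMP response element TGACGTCA, the ETS site CCGGAAG and the NRF1 site GCGCATGC.
Fmr1: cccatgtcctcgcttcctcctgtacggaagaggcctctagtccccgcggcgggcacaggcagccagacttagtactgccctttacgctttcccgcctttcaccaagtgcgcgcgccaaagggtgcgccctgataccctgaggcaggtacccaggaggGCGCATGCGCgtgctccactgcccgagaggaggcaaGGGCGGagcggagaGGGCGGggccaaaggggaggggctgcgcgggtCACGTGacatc
Sclt1: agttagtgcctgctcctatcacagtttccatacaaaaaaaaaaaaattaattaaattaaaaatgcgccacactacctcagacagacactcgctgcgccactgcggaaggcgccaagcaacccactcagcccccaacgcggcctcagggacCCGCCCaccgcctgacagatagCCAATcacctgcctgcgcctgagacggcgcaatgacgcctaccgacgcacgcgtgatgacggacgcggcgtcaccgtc
Celf5: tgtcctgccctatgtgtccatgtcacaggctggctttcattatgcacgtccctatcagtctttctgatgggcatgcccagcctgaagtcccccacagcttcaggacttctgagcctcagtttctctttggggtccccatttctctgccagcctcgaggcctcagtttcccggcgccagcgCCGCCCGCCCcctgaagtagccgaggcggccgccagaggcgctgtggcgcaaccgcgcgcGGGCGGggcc
The Fmr1 window held 1 E-box, 2 GC boxes and a palindrome that reads as the NRF1 site on both strands, and 67.2% of its bases were G or C. The Sclt1 window held 1 GC box and 1 CCAAT box at 56.8% G or C. The Celf5 window held 3 GC boxes, of which a pair overlap, at 64.4% G or C. All 27025 mouse promoter windows of the same source were searched over the same 250 bases before the start. Of these, 32.96% held the GC box, 34.53% the CCAAT box, 6.043% the E-box and 2.309% the NRF1 site. The TATA box (12.98% of windows), the cAMP response element (1.599%) and the ETS site (7.071%) were not among the letters of these 3 windows. A match is a description of the letters and was not set against any binding data.

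The 6 knockout libraries held 2937937 to 9040968 counts and the 15 wild-type libraries 422978 to 10673072. Genes with at least 1 read numbered 5258 to 8019 per knockout cell (median 6486.5) and 1511 to 8519 per wild-type cell (median 6047). The wild-type cells fell into 9 with a read in at least 4000 genes, called gene-rich below (4266 to 8519 genes), and 6 with fewer. The knockout cells were all gene-rich, so differences are given against all 15 wild-type cells and against the 9 gene-rich ones. Mitochondrial transcripts made up 0.602% to 3.72% of counts in knockout cells, 0.148% to 14.9% in gene-rich wild-type cells and up to 44.8% over all wild-type cells. Wild-type cell 10, which moves several lists below, had the fewest genes (4266) and the largest mitochondrial share (14.9%) of the gene-rich cells. Values are read counts scaled to the library total, as CPM. A difference is the mean over knockout cells of log2(CPM + 1) minus the mean over wild-type cells, which understates the change of genes with low values.

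Markers of pyramidal neurons were read in most cells, and dopamine receptor genes in few. Snap25, a synaptic vesicle fusion protein, was read in 6 of 6 knockout and 15 of 15 wild-type cells, and Slc17a7, the vesicular glutamate transporter of cortical pyramidal neurons, in 6 of 6 and 13 of 15. Drd1, the D1 receptor itself, was read in 0 of 6 knockout cells, which leaves a share of up to 45.9% (exact 95% interval, counting error only). Among wild-type cells Drd1 was read in 4 of 15, an exact 95% interval of 7.79% to 55.1%. Drd2, Drd3 and Drd4 were read in none of the 21 cells, and Drd5, the other receptor of the D1 class, in 1 knockout and 9 wild-type cells at no more than 38.9 CPM. The cells are therefore called D1 by their label. Slc32a1, the vesicular GABA transporter of interneurons, was at 0 in all 21 cells, but other interneuron markers were not. Gad1 was read in 1 knockout and 4 wild-type cells, Sst in 1 and 3, and Pvalb in 0 and 3. Reln reached 1358 CPM in a wild-type cell.

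The knocked-out gene gave no read in any cell labelled knockout. Fmr1 was read in 0 of 6 knockout cells, which allows a share of up to 45.9%. In gene-rich wild-type cells it was read in 8 of 9, with a median of 113 CPM and a highest value of 298 CPM, and in none of the 6 other wild-type cells. The difference was -3.22 against all wild-type cells and -5.37 against the gene-rich ones. A wild-type cell without an Fmr1 read could therefore not be told from a knockout cell by this gene. The Fmr1 gene spans bases 68678541 to 68717963 of chromosome X.

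Of 22800 gene symbols, 10792 reached a mean of 1 CPM over the 21 cells with reads in 10% or more of them, and these are called measured. Over the measured genes the median difference was 0.98 against all wild-type cells and 0.14 against the gene-rich cells. Differences of at least 2 log2 units upward were held by 2980 genes (27.6%) and downward by 145 (1.34%) when all wild-type cells were used. Counted relative to the median of measured genes, the split was 1346 upward and 844 downward. Against gene-rich wild-type cells the same bounds were passed by 1303 genes (12.1%) upward and 875 (8.11%) downward. In 2124 measured genes the difference was positive although the mean CPM was larger in wild-type cells. The likeness of cells overlapped within and across genotypes: Spearman's rho over the measured genes had a median of 0.331 between knockout cells (15 pairs, 0.283 to 0.408), 0.30 between gene-rich wild-type cells (36 pairs, 0.217 to 0.393) and 0.311 across genotypes (54 pairs, 0.174 to 0.411).

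3 of the 10792 measured genes (0.0278%) were higher in every knockout D1 cell than in every wild-type D1 cell: Taf2, Sclt1 and Celf5. None was lower in every knockout cell than in every wild-type cell. That would need a read in each wild-type cell, and 6 of them had reads in only 1511 to 2780 genes. Against the gene-rich wild-type cells alone, 3 genes lay above in this way and 2 (0.0185%) below. Taf2 encodes a subunit of TFIID, the complex that recognises core promoters. Its 6 knockout cells held 198, 233, 62.1, 138, 357 and 176 CPM, and wild-type cells had a read in only 3 of 15, with a highest value of 22.4 CPM. The lowest knockout cell lay above the highest wild-type cell, with means of 194 ± 98.9 CPM (SD, 6 cells) and 1.64 ± 5.77 CPM (SD, 15 cells). The difference was 7.00 against all and 6.72 against gene-rich wild-type cells, and the smaller of these values was the largest among the qualifying genes described below. The gene spans bases 55015131 to 55072152 of chromosome 15.

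Sclt1 encodes a protein of the centriole's distal appendages, from which cilia are anchored. Knockout cells 1 to 6 held 40.8, 261, 58.5, 87.3, 45.05 and 104 CPM, while wild-type cells had a read in 4 of 15 and reached 10.9 CPM. The genotypes did not overlap, and the means were 99.4 ± 82.8 CPM and 1.71 ± 3.64 CPM. The difference was 5.68, or 5.57 against gene-rich cells. Sclt1 lies on chromosome 3, bases 41626720 to 41742514, just after the promoter-side sequence shown above.

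Celf5, an RNA-binding regulator of splicing and translation in the brain, differed from the other pair in being widely read in wild-type cells. Its knockout values were 183, 66.8, 123, 195, 101 and 144 CPM. Wild-type cells had a read in 11 of 15, and in 9 of 9 gene-rich cells, with a median of 3.31 and a highest value of 51.7 CPM. The separation was narrow at the edge, between a knockout cell at 66.8 and a wild-type cell at 51.7 CPM, and the means were 135 ± 48.9 and 13.5 ± 17.1 CPM. The difference was 4.40 against all and 3.05 against gene-rich wild-type cells. Celf5 lies on chromosome 10, bases 81459227 to 81482709, and 543 of its exon bases are shared with a gene on the other strand, which counting without strand cannot separate.

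**Figure D1:**
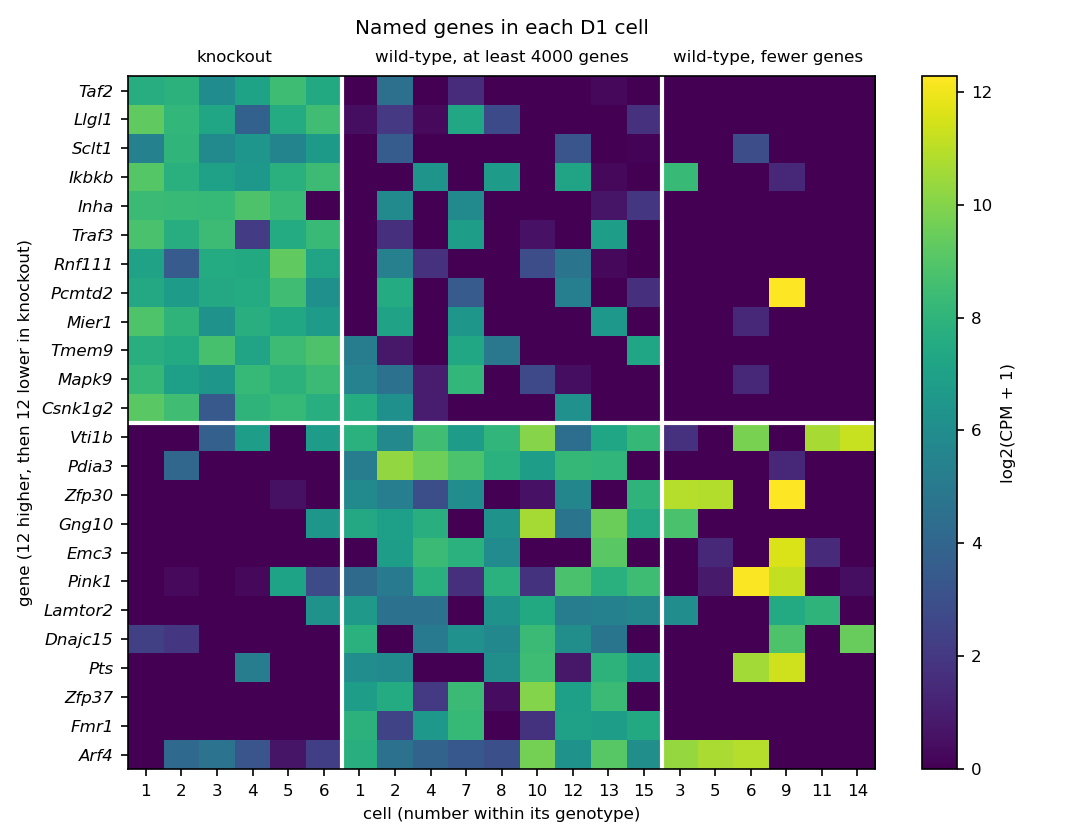
Each column is 1 cell and each line 1 named gene, and colour gives log2(CPM + 1) for 6 knockout, 9 gene-rich wild-type and 6 other wild-type D1 cells. The 12 higher genes are coloured in most knockout columns and in few wild-type columns, and the 12 lower genes show the opposite, with single knockout cells that break the pattern, such as cell 6 for Gng10 at 90.7 CPM.

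12 genes per direction were named by the size of their difference, taking the smaller of the value against all and against gene-rich wild-type cells, among genes whose value did not hang on 1 cell. Of 8565 genes considered, 2763 qualified. Because these genes were picked for their difference, the values below describe them and do not support the difference. The first genes past the bounds were Dhx16 (5.53 and 5.16) and Ap5z1 (5.16 and 5.94) on the higher side, and Mxi1 (-3.19 and -4.21) and Snx5 (-3.16 and -3.38) on the lower side. Against gene-rich cells, the 12 higher genes ranged from 5.17 (Csnk1g2) to 6.72 (Taf2), and 11 of them were read in each knockout cell.

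Ikbkb, Traf3, Mapk9 and Rnf111 are placed together for reading only, and no shared function of the higher genes was tested. Ikbkb encodes IKK beta, the kinase that releases NF-kappa B from its inhibitor. Its knockout cells held 522, 220, 130, 91.2, 222 and 336 CPM. Among wild-type cells 6 of 15 had a read, up to 317 CPM, so that 2 knockout cells lay above the highest wild-type cell and 3 wild-type cells above the lowest knockout cell. The difference was 5.74 (5.48 against gene-rich cells).

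Traf3 encodes a ubiquitin ligase adaptor of TNF receptor and Toll-like receptor signalling. Knockout cells 1 to 6 held 426, 201, 337, 3.48, 185 and 316 CPM, against reads in 4 of 15 wild-type cells and a highest value of 116 CPM. Knockout cell 4 stood far below the other 5, which all exceeded the wild-type cells. The difference was 6.07 (5.35).

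Mapk9, the stress kinase JNK2, had 284, 120, 89.1, 303, 240 and 334 CPM in knockout cells. It was read in 7 of 15 wild-type cells and reached 281 CPM in 1 of them, so 3 knockout cells lay above each wild-type cell. The difference was 6.11 (5.22). Rnf111 encodes Arkadia, a ubiquitin ligase that enhances TGF beta signalling. Its knockout cells held 133, 10.4, 184, 176, 616 and 145 CPM, with reads in 5 of 15 wild-type cells and at most 39.9 CPM. All knockout cells but cell 2 lay above the wild-type range, and the difference was 6.01 (5.34).

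Inha, the alpha subunit of inhibin, a TGF beta family hormone, was at 325, 305, 301, 466 and 313 CPM in knockout cells 1 to 5 and at 0 in cell 6. It was read in 4 of 15 wild-type cells, up to 58.6 CPM. Cell 6 thus shared the value of most wild-type cells, and the other 5 lay above all of them. The difference was 6.04 (5.40).

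Csnk1g2, a casein kinase 1 isoform tied to the membrane, had 1 knockout cell far below the rest. Knockout cells held 557, 362, 9.64, 249, 301 and 212 CPM, and wild-type cells had a read in 4 of 15 with a highest value of 194 CPM. Each knockout cell except cell 3 lay above the wild-type range, and the difference was 6.10 (5.17).

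Llgl1, a cortical polarity protein, had 624, 282, 148, 13.1, 189 and 363 CPM in knockout cells and reads in 6 of 15 wild-type cells, up to 158 CPM. 4 knockout cells lay above each wild-type cell, and 1 wild-type cell lay above knockout cells 3 and 4. The difference was 6.45 (5.80). Tmem9, a transmembrane protein of endosomes and lysosomes, had 212, 183, 414, 143, 345 and 464 CPM in knockout cells. Its wild-type cells had a read in 5 of 15 and reached 160 CPM, above knockout cell 4 only. The difference was 6.37 (5.24).

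Mier1, a transcriptional repressor that binds histone deacetylases, had 477, 252, 75.6, 207, 164 and 107 CPM in knockout cells and at most 135 CPM in the 4 of 15 wild-type cells with a read. 4 knockout cells lay above the wild-type range, and the difference was 6.06 (5.25). Pcmtd2, which resembles protein-repair methyltransferases, had 169, 108, 169, 184, 361 and 71.6 CPM in knockout cells. Wild-type cell 9 alone held 4965 CPM, so that the wild-type mean of 347 CPM was above the knockout mean of 177 CPM although only 5 of 15 wild-type cells had a read. The direction of Pcmtd2 therefore turns with the averaging: 5.28 (5.29 against gene-rich cells) as a difference of mean log values, and -0.97 as the log2 ratio of mean CPM + 1.

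Among the 12 lower genes, 3 had no read in any knockout cell: Fmr1, Emc3 and Zfp37. Emc3 belongs to the ER membrane complex, which inserts membrane proteins. Its wild-type cells had a read in 8 of 15, with a median of 1.70 and a highest value of 3056 CPM. Taking 3 counts over the summed knockout libraries as the floor, Emc3 was at least 1870-fold lower in the summed counts of knockout cells. That bound leans on wild-type cell 9, which held the 3056 CPM, while the next highest wild-type cell held 553 CPM. Gene-rich wild-type cells 1, 10, 12 and 15 also had no Emc3 read. The fold therefore describes summed counts and sets no bound on the change in a cell. On the log scale the difference was -3.50 (-4.23 against gene-rich cells).

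Zfp37 encodes a zinc finger protein found in neurons. It was read in 8 of 15 wild-type cells, all among the gene-rich 9, with a gene-rich median of 121 and a highest value of 1032 CPM. On the same floor Zfp37 was at least 1502-fold lower in the summed counts of knockout cells. The same limit holds, as gene-rich wild-type cell 15 had no read. The log difference was -3.37 (-5.62). Zfp30, another zinc finger gene, was at 0 in all knockout cells but cell 5, which held 0.453 CPM. Its wild-type cells had a read in 10 of 15, a median of 36.8 and a highest value of 4847 CPM, and the difference was -4.46 (-3.71). Wild-type and knockout cells overlapped at 0 for all 3 genes.

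Vti1b, Pdia3, Arf4, Lamtor2 and Gng10 follow, and no shared function of the lower genes was tested. Vti1b, a SNARE protein of late endosomes, had 0, 0, 12.4, 119, 0 and 109 CPM in knockout cells. Wild-type cells had a read in 13 of 15, and in 9 of 9 gene-rich cells, where the values ran from 20.8 to 1054 CPM with a median of 226. No knockout cell lay above the wild-type median, although the ranges overlapped, and the difference was -3.78 (-4.52).

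Pdia3, a disulfide isomerase that folds glycoproteins in the endoplasmic reticulum, was at 0 in all knockout cells but cell 2 (15.6 CPM). Wild-type cells had a read in 9 of 15, of which 8 were gene-rich, with a gene-rich median of 269 and a highest value of 1247 CPM. The difference was -3.74 and widened to -6.52 against gene-rich cells. Arf4, a small GTPase of Golgi traffic, had 0, 17.4, 24.2, 8.30, 0.605 and 3.87 CPM in knockout cells. Its 9 gene-rich wild-type cells ran from 7.02 to 831 CPM, and 8 of the 15 wild-type cells lay above each knockout cell. The difference was -3.21 (-3.47), and 637 exon bases of Arf4 are shared with a gene on the other strand.

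Lamtor2, part of the Ragulator complex that holds mTORC1 at the lysosome, was at 0 in 5 knockout cells and at 76.3 CPM in cell 6. In wild-type cells it was read in 11 of 15, with a median of 40.6 and a highest value of 254 CPM, so cell 6 lay among them. The difference was -3.44 (-4.04). Gng10, a G protein gamma subunit, was likewise at 0 in all but knockout cell 6 (90.7 CPM), against reads in 9 of 15 wild-type cells up to 1568 CPM and a difference of -3.54 (-5.65). 946 of the 1314 exon bases of Gng10 are shared with a gene on the same strand, so its count is uncertain.

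The last 3 lower genes are Pink1, Dnajc15 and Pts. Pink1, the kinase that marks damaged mitochondria, had 0, 0.260, 0, 0.193, 139 and 6.08 CPM in knockout cells. It was read in 13 of 15 wild-type cells and in 9 of 9 gene-rich cells, with a gene-rich median of 223 CPM and a highest value of 4691 CPM over all wild-type cells. Only knockout cell 5 lay above the median of all wild-type cells, 31.6 CPM, and the difference was -3.45 (-4.18).

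Dnajc15, a chaperone of mitochondrial protein import, had 4.08 and 2.86 CPM in knockout cells 1 and 2 and 0 in the others. Each of the 9 wild-type cells with a read held more, up to 683 CPM, and the difference was -3.43 (-4.17). Pts, an enzyme of tetrahydrobiopterin synthesis, the cofactor of dopamine production, was at 35.7 CPM in knockout cell 4 and at 0 in the others. 8 of 15 wild-type cells lay above that cell, up to 2655 CPM, and the difference was -3.39 (-3.78).

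The D2 cells, which did not enter the choice of the 24 genes, showed the same directions at shares near or below those of all measured genes. Of the 12 genes higher in knockout D1 cells, 9 had a difference above 0 in D2 cells, where 69.1% of measured genes did. Of the 12 lower genes, 2 (Fmr1 and Pdia3) were below 0 in D2 cells, where 30.6% of measured genes were. Among gene-rich D2 cells 3 of the 12 higher genes were above 0 (38.6% of measured genes) and 5 of the 12 lower genes below 0 (60.9%).

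Mapk9 and Rnf111 kept a D2 difference of at least 2, at 3.67 and 2.11 against all wild-type D2 cells. Among gene-rich D2 cells Mapk9 was at 2.58 and Rnf111 at 1.31. Taf2 was at -1.19 in D2 cells (-3.09 gene-rich), Ikbkb at -1.95 (-4.37) and Llgl1 at -1.66 (-2.83), the sign opposite to D1. Sclt1 was at 1.49 (-0.50 gene-rich) and Celf5 at 0.98 (-0.13), so that for both the sign turned with the D2 cells used. On the lower side only Fmr1 was at or below -2 in both D2 sets, at -2.53 and -4.60. Pdia3 was at -0.47 (-2.25 gene-rich) and Vti1b at 2.54 (0.45). No test of a difference between the D1 and D2 values was made.

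**Figure D2:**
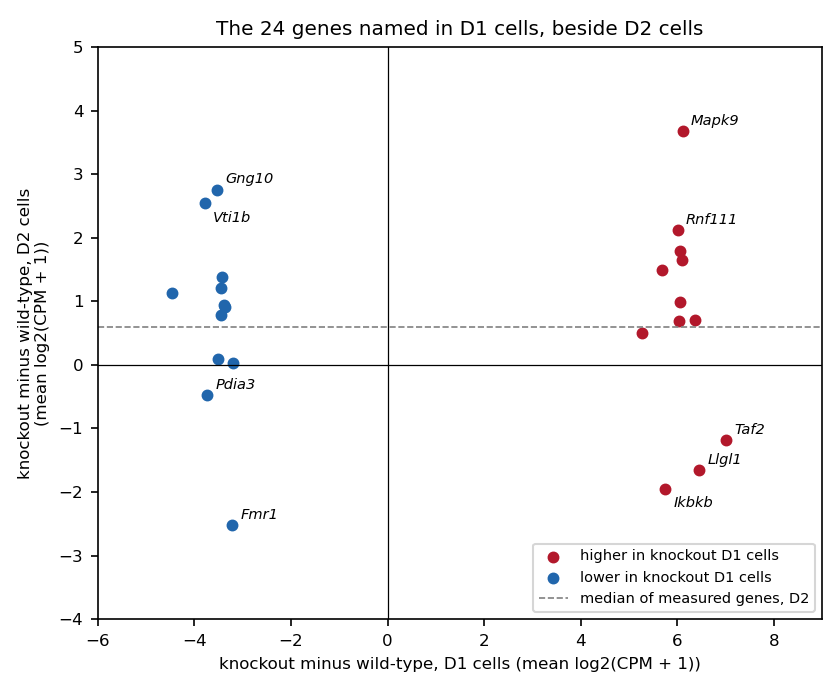
Each point is 1 of the 24 named genes, with its knockout minus wild-type difference in D1 cells on the horizontal axis and in D2 cells on the vertical axis, both as mean log2(CPM + 1), and the dashed line is the median of all measured genes in D2 cells. The D1 axis separates the genes by construction, while on the D2 axis both sets straddle the dashed line at 0.59, with Fmr1 lowest and Mapk9 highest.

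At 31 days, the 1 age that both genotypes share, knockout cell 3 could be set beside 3 wild-type cells. These 4 cells also took part in choosing the genes. 11 of the 12 higher genes were above 0 there, the exception being Csnk1g2 at -0.72, and in 8 of them the knockout cell lay above each of the 3 wild-type cells. 11 of the 12 lower genes were below 0, the exception being Arf4 at 1.02. Against the 2 gene-rich wild-type cells of 31 days, 12 of 12 lower genes were below 0. Over all measured genes 43.9% were above 0 at this age, and 56.8% were below 0 against the gene-rich cells.

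Genes tied to FMRP, and genes of other neuronal and general cell pathways, were described by 23 lists. A list is given by its median difference against gene-rich wild-type cells and by the number of measured members at least 2 log2 units higher and lower, beside 0.14, 12.1% and 8.11% over all measured genes. The median against all 15 wild-type cells follows, beside 0.98 over all measured genes. Each cell was left out in turn, and cells whose absence moved a list's median by more than 1.5 times are named, or the range is given where many cells did so. Messenger RNAs known to be bound by FMRP and to encode large synaptic proteins had a median of 1.25, with 14 of 52 at least 2 units higher and none that far lower. 41 of the 52 were above 0.14, the median of all measured genes. With single cells left out the list median stayed between 0.93 and 1.495. Against all wild-type cells the median was 2.44, with 36 of 52 higher. The members are long in annotated exons, with a median of 12581 exon bases against 4716.5 over measured genes. In D2 cells the list's median was 1.10 against all and -0.44 against gene-rich wild-type cells.

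Kcnma1, the pore of the BK potassium channel, was read in all knockout cells at 219, 277, 432, 533, 1022 and 27.4 CPM. In wild-type cells the median was 3.19 and the highest value 414 CPM, below 3 of the knockout cells. The difference was 4.93 (3.35 against gene-rich cells), and 1016 exon bases are shared with a gene on the other strand. Mtor, the growth kinase at the head of 2 complexes, was at 86.8, 71.2, 131 and 377 CPM in knockout cells 1 to 4 and at 0 in cells 5 and 6. Reads were found in 3 of 15 wild-type cells, up to 217 CPM, and the difference was 3.90 (3.36).

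Of the proteins that bind or accompany FMRP, 3 of 26 were at least 2 units higher and 1, Fmr1, that far lower. The list median was -0.35 (0.91 against all wild-type cells), between -0.47 and 0.11 with single cells left out, and it turned to 0.05 without knockout cell 3 and to 0.05, 0.11 and 0.08 without wild-type cell 1, 7 or 12. Ago2, the Argonaute of microRNA silencing, was at 248, 185, 103 and 257 CPM in knockout cells 1 to 4 and at 0 in cells 5 and 6, the same cells that lacked Mtor. Its wild-type cells had a read in 4 of 15, up to 142 CPM, and the difference was 4.05 (3.39). The paralogs Fxr1 and Fxr2 were at 0.99 and 0.68 against all wild-type cells and at -0.35 and -1.32 against gene-rich ones, so that their sign turned with the cells used.

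Group 1 metabotropic glutamate receptor signalling had a median of 0.25 (1.38 against all wild-type cells), between -0.16 (without knockout cell 4) and 0.58 with single cells left out, with 5 of 20 members at least 2 units higher and none that far lower. Homer1, the scaffold that links these receptors to internal calcium stores and also an activity-induced gene, held 410, 652, 655, 1904, 593 and 688 CPM in knockout cells. Wild-type cells had a median of 32.1 and a highest value of 481 CPM, and 5 of 6 knockout cells lay above that value. The difference was 4.53 (2.83). Prkca, protein kinase C alpha, downstream of the same receptors, was read in each knockout cell and in 6 of 15 wild-type cells, with a difference of 3.76 (3.86).

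Ionotropic glutamate receptors had a median of 1.44 (2.40 against all wild-type cells), with 7 of 20 at least 2 units higher and 1 lower. Without wild-type cell 10 the median was 0.78. Gria3, an AMPA receptor subunit, held 475, 670, 873, 287, 2394 and 449 CPM in knockout cells. Wild-type cells ran from 0 to 1867 CPM with a median of 198, so all knockout cells lay above the wild-type median and 1, cell 5, above its range. The difference was 3.99 (3.06). Cacng3, an AMPA receptor auxiliary subunit, was the lower member at -1.27 (-2.79).

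Inhibitory receptor genes had a median of 0.74 (1.89 against all wild-type cells), with 3 of 16 at least 2 units higher and 1 lower. The median was 0.19 without knockout cell 3 and 0.39 without wild-type cell 1, 10 or 15. Gabra4, a GABA-A receptor alpha subunit, held 344, 82.4, 411, 335, 715 and 340 CPM in knockout cells against a wild-type median of 1.82 and a highest value of 510 CPM, a difference of 5.23 (3.35). Gabrd, the delta subunit of receptors outside synapses, was the lower member at -1.13 (-2.09, or -1.38 without wild-type cell 2), with reads in 1 of 6 knockout and 3 of 15 wild-type cells. Both genes overlapped between the genotypes.

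Sodium, calcium and HCN channel genes had a median of 1.43 (2.42 against all wild-type cells, and 0.95 without wild-type cell 1), with 9 of 26 at least 2 units higher and 1 lower. Cacnb2, a calcium channel beta subunit, held 368, 146, 261, 72.2 and 55.8 CPM in knockout cells 1 to 5 and 0 in cell 6, and was read in 1 of 15 wild-type cells, at 182 CPM. The difference was 5.46 (5.13). Nalcn, the sodium leak channel that sets the resting potential, held 118, 58.5, 6.43, 175, 268 and 23.3 CPM against reads in 4 of 15 wild-type cells, up to 31.9 CPM. 4 knockout cells lay above the wild-type range, and the difference was 5.03 (4.40). Potassium channels as a list stood at 0.16 (1.03 against all wild-type cells), with 6 of 43 higher and 4 lower. Single cells left out put their median between -0.14 and 0.57, and below 0 (-0.14, -0.0069 and -0.06) without knockout cell 1, 2 or 6. Kcnt2, a sodium-activated potassium channel, was read in 6 of 6 knockout and 6 of 15 wild-type cells, at 4.68 (4.14).

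Release and scaffold genes were split. Presynaptic genes had a median of 0.03 (1.505 against all wild-type cells), between -0.25 (without knockout cell 6) and 0.23 with single cells left out, with 5 of 35 higher and 3 lower. Postsynaptic density genes had 0.56 (1.95 against all wild-type cells, and 0.86 without knockout cell 6), with 4 of 28 higher and none lower by 2 units. Rims1, a scaffold of the vesicle release site, held 266, 219, 169, 210, 128 and 760 CPM in knockout cells, against a wild-type median of 4.14 and a highest value of 361 CPM. Only knockout cell 6 exceeded that value, and the difference was 4.82 (3.90). Stxbp5, tomosyn, which holds back release, was at 4.69 (3.05).

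Immediate early genes, switched on by neuronal activity, had a median of 1.34 (2.57 against all wild-type cells), with 9 of 24 at least 2 units higher and none that far lower. The median was 0.89, 0.87 and 0.77 without wild-type cell 4, 10 or 13. Unlike the FMRP-bound list these genes are short in annotated exons, with a median of 3293.5 exon bases. Npas4, an activity-dependent transcription factor, held 750, 162, 0, 426, 471 and 843 CPM in knockout cells, and wild-type cells had a read in 4 of 15 with a highest value of 239 CPM. 4 knockout cells lay above the wild-type range, 1 within it and 1 at 0, and the difference was 5.49 (4.23). Nr4a2, an orphan nuclear receptor, held 6.13, 414 and 926 CPM in knockout cells 1, 3 and 4 and was read in none of the 15 wild-type cells. Its difference of 3.56 fell to 2.31 without knockout cell 4.

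Signalling lists lay between these. mTOR, PI3K and ERK genes had a median of 0.84 (2.02 against all wild-type cells), with 7 of 38 higher and 4 lower, the latter including the GTPase Hras at -1.02 (-3.33). Their median was 0.39 and 0.48 without knockout cell 4 or 6, and 0.48 without wild-type cell 10. Dopamine and cAMP genes had a median of 0.50 (1.63 against all wild-type cells), with 8 of 31 higher and 1, Drd1, lower. It was 0.78 without knockout cell 5, and 0.85 and 0.16 without wild-type cell 2 or 13. Pde4b, a cAMP phosphodiesterase, was at 4.59 (4.003) and was read in 5 of 6 knockout and 6 of 15 wild-type cells. JNK and p38 genes had a median of 0.25 (1.67 against all wild-type cells), between 0.06 (without wild-type cell 4) and 0.64 (without knockout cell 5) with single cells left out. Of these, 3 of 21 were higher and 1 lower, the kinase Map2k3 at -1.15 (-3.45). Rac, PAK and WAVE genes stood at 0.01 (0.85 against all wild-type cells), between -0.31 (without wild-type cell 8) and 0.22 when single cells were left out, with 4 of 36 in each direction. Among them Limk1, which phosphorylates cofilin, held 76.9, 49.1, 80.3, 120, 0 and 0.111 CPM in knockout cells and was read in 1 of 15 wild-type cells at 0.378 CPM, a difference of 4.19 (4.17).

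Lipid and cholesterol synthesis genes had a median of 0.85 (1.33 against all wild-type cells), with 6 of 33 higher and 1 lower. Leaving out knockout cell 4 or 5 gave 0.36 and 0.53, and leaving out wild-type cell 1, 10 or 15 gave 0.46, 0.53 and 0.53. Sqle, the squalene epoxidase of sterol synthesis, held 52.8, 91.0, 0.214, 48.1, 528 and 219 CPM in knockout cells and was read in 5 of 15 wild-type cells, up to 161 CPM, a difference of 4.79 (4.87). Motor protein genes had a median of 0.77 (1.79 against all wild-type cells, 0.44 without knockout cell 2 and 0.31 without wild-type cell 10), with 4 of 37 higher and 2 lower. Kif3c, a kinesin subunit that carries FMRP granules, was at 4.12 (3.01), but 3016 of its exon bases are shared with a gene on the other strand. Ubiquitin ligases had a median of 0.65 (1.97 against all wild-type cells), with 7 of 46 higher and 5 lower. It was 0.42 without knockout cell 2, and 0.33 and 0.43 without wild-type cell 10 or 15. The lowest of them, Znrf2, was read in 1 of 6 knockout and 8 of 15 wild-type cells, at -2.42 (-3.87).

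The lists of the protein synthesis and energy machinery had medians below 0 against gene-rich wild-type cells. Against all wild-type cells only the ribosomal protein lists among them stayed below 0. Large-subunit ribosomal protein genes had a median of -0.60 (-0.26 against all wild-type cells), with none of 46 at least 2 units higher and 12 that far lower. It was -1.01 and -0.95 without knockout cell 3 or 6, and -0.93, -0.97 and -1.09 without wild-type cell 2, 4 or 7. Small-subunit genes had a median of -0.97 (-0.55 against all wild-type cells), with none of 32 higher and 6 lower. The same lists stood at 1.01 and 1.41 in gene-rich D2 cells, the opposite sign. Summed over its 46 genes, the large subunit took 2196 to 5958 CPM in knockout cells (median 2965) and 2366 to 18204 CPM in gene-rich wild-type cells (median 5011), so the ranges overlapped.

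Rpl7a, a large-subunit protein, was 1 of 2 measured genes (0.0185%) that were lower in every knockout cell than in every gene-rich wild-type cell. It held 1.02, 0, 0, 0.386, 0.151 and 0 CPM in knockout cells and 5.32 to 137 CPM in gene-rich wild-type cells, with a median of 84.0 CPM. The difference was -3.03 against all and -5.24 against gene-rich wild-type cells, where the 6 gene-poor cells had no read. In D2 cells Rpl7a was at 3.14 (2.24). The other gene, Gm10053, a predicted gene, was at no more than 2.14 CPM in knockout cells and at 2.19 to 11.1 CPM in gene-rich wild-type cells. Ribosomal protein genes have near-identical pseudogene copies, so their counts depend on how the reads were placed and are uncertain.

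Rpl8 was at -2.16 (-3.84), Rps20 at -2.54 (-3.05) and Rps3 at -2.10 (-2.85). Translation factors had a median of -0.46, with 1 of 45 higher and 6 lower, and the sign turned against all wild-type cells, to 0.77 with 12 higher and none lower by 2 units. Without knockout cell 1 or 4 or wild-type cell 15 the gene-rich median was -0.30, -0.28 and -0.30. Eif3h and Eif3d, subunits of the initiation factor that joins messenger RNA to the small ribosomal subunit, were at -1.20 (-3.32) and -1.03 (-3.29). Each was read in 3 of 6 knockout cells, and in 7 and 8 of the 9 gene-rich wild-type cells.

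Nuclear-encoded respiratory subunits had a median of -0.69 (-0.26 without knockout cell 1), with none of 74 higher and 7 lower. Against all wild-type cells the median was 0.32, with 7 higher and none lower by 2 units. Ndufa8, a subunit of complex I, held 0, 111, 210, 155, 0 and 0 CPM in knockout cells and was read in each gene-rich wild-type cell at 15.9 to 553 CPM. The difference was -1.82 (-3.32), and Uqcrb, a subunit of complex III, was at -0.98 (-2.82). Glycolysis genes had a median of -0.85 (-0.29 without knockout cell 3), with none of 18 higher and 3 lower. Against all wild-type cells it was 0.87, with 2 higher and none lower by 2 units. Tpi1, triosephosphate isomerase, held 3.06, 483, 524, 114, 332 and 787 CPM in knockout cells against 489 to 2484 CPM in gene-rich wild-type cells, a difference of -1.07 (-2.50, or -1.41 without knockout cell 1). Pgk1, an ATP-forming enzyme of the same pathway, was at 0.18 against all and at -2.59 against gene-rich wild-type cells, and at -1.72 without knockout cell 4 or cell 5. Proteasome genes stood at -0.18, with 1 of 31 higher and 5 lower, and at 1.57 against all wild-type cells, with 12 higher and none lower by 2 units. Single cells left out put the gene-rich median between -0.79 and 0.07, and above 0 (0.07, 0.06, 0.04 and 0.03) without knockout cell 5 or wild-type cell 1, 12 or 15. Psmc1, an ATPase of the proteasome's regulatory cap, was at -1.71 (-3.29).

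**Figure D3:**
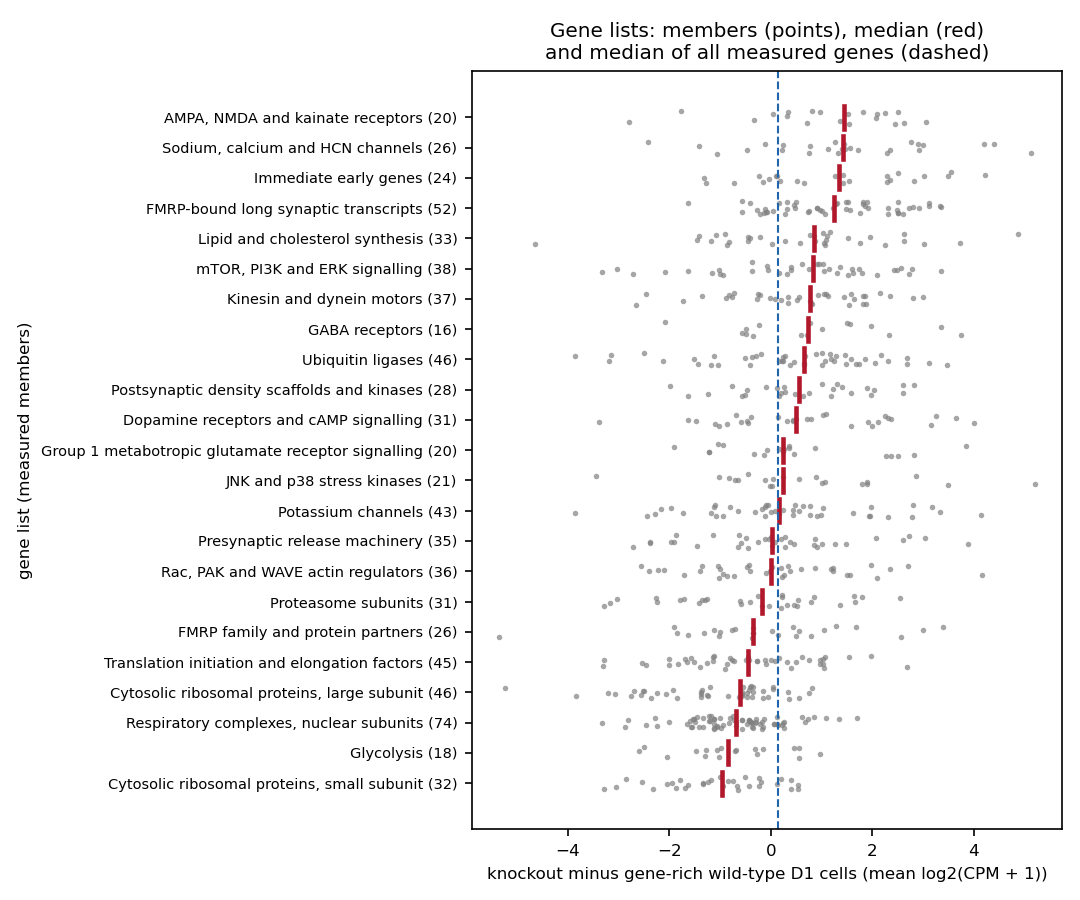
Each line is 1 of the 23 pathway lists, grey points are its measured members, the red mark is the list median and the dashed line the median of all measured genes, on the axis of knockout minus gene-rich wild-type difference in mean log2(CPM + 1). Ionotropic receptors, sodium and calcium channels, immediate early genes and FMRP-bound transcripts have medians of 1.25 to 1.44, and ribosomal protein, respiratory and glycolysis genes have medians of -0.60 to -0.97, with wide spread within each list.

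Exon length ran alongside these differences. It counts the bases covered by the exons of all annotated transcripts of a gene together, and is not the length of a single transcript. Of the measured genes, 10732 (99.4%) had an exon length in the annotation. In 10 groups of nearly equal size by length, the median difference against gene-rich wild-type cells went from -0.44 in the shortest group (median 1327 exon bases) to 0.96 in the longest (median 13294.5). The share of genes at least 2 units higher went from 3.82% to 23.8%, and the share at least 2 units lower from 13.7% to 3.07%. Against all wild-type cells the medians were 0.19 and 2.07. Spearman's rho between length and difference was 0.26 across genes (0.29 against all wild-type cells), and genes of 1 cell share its library, so no p-value is attached. Within 5 groups of genes by mean expression rho was 0.12, 0.16, 0.23, 0.33 and 0.39 from the lowest to the highest.

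**Figure D4:**
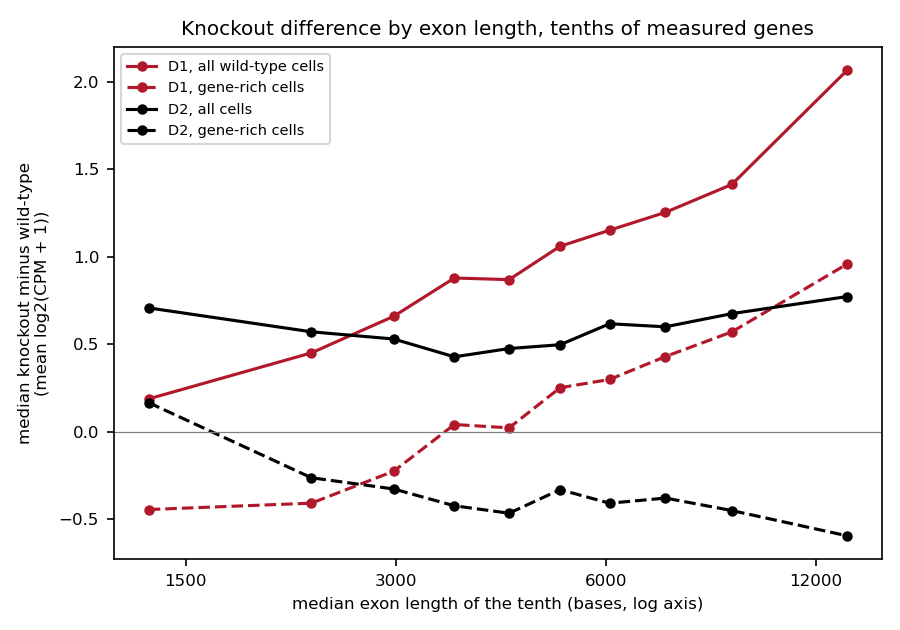
The horizontal axis gives the 10 groups of measured genes from shortest to longest exon length and the vertical axis the median knockout minus wild-type difference in mean log2(CPM + 1), for D1 and D2 cells and for all or gene-rich cells. Both D1 lines climb from the shortest to the longest group, from -0.44 to 0.96 against gene-rich cells, while the D2 lines run from 0.71 to 0.77 and from 0.17 to -0.59.

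The D2 cells did not show this slope. There the shortest and longest groups had medians of 0.71 and 0.77 against all wild-type cells and 0.17 and -0.59 among gene-rich cells, with rho of 0.02 and -0.12. At 31 days alone, the longest 25% of genes minus the shortest 25%, as mean log values, was 1.13 in the knockout cell. It was 0.89 and 0.49 in the 2 gene-rich wild-type cells of that age and -0.74 in the other. With all 6 knockout cells, 5 of them of 32 days, set against those 2 wild-type cells, the median difference of the long genes minus that of the short genes was 0.39.

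The same measure separated most single cells. It is the mean log2(CPM + 1) of the longest 25% of measured genes (at least 7301 exon bases) minus that of the shortest 25% (at most 2977). Knockout D1 cells 1 to 6 had 1.28, 1.21, 1.13, 1.56, 1.00 and 0.04, and the gene-rich wild-type D1 cells ran from -1.59 to 0.92 with a median of 0.05. Knockout cells 1 to 5 thus lay above every wild-type D1 cell, and cell 6 lay at the gene-rich wild-type median. Knockout D2 cells ran from -1.64 to 1.74 (median 0.09), covering the whole range of the knockout D1 cells. Wild-type D2 cells ran from -0.69 to 1.39 (median 0.05), covering that range in part. The longest 25% of genes took 25.3% to 36.5% of counts in knockout D1 cells and 8.10% to 32.8% in wild-type D1 cells. The median difference of the long genes minus that of the short genes was 1.11 against gene-rich wild-type cells and stayed between 0.90 (without wild-type cell 1) and 1.30 (without knockout cell 6) when single cells were left out.

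**Figure D5:**
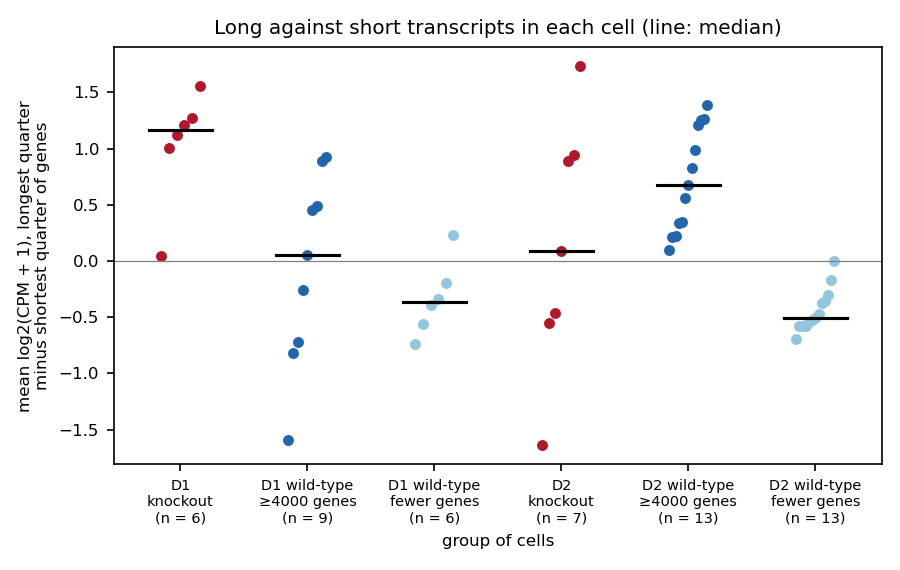
Each point is 1 cell, and the vertical axis is its mean log2(CPM + 1) over the longest 25% of measured genes minus that over the shortest 25%. 5 of 6 knockout D1 cells sit between 1.00 and 1.56, above each wild-type D1 cell, while the knockout D2 cells run from -1.64 to 1.74.

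Transcripts of other cell types were present in both genotypes, and microglial ones had lower medians in knockout cells. Against gene-rich wild-type cells, all 11 measured microglial markers were below 0.14, the median of all measured genes. The microglial median was -1.58, and 3 of the 11 were at least 2 units lower (8.11% of all measured genes). The median was -1.0 without knockout cell 2 or 5 and -2.60 without cell 4, and -0.58 against all wild-type cells. Their summed level was 0.453 to 2487 CPM in knockout cells (median 439) and 0.319 to 10595 CPM in wild-type cells (median 898, or 732 in gene-rich cells), so the ranges overlapped. C1qa, a complement component made by microglia, was read in 1 of 6 knockout cells at 100 CPM and in 9 of 15 wild-type cells, and Tyrobp, a signalling adaptor of myeloid cells, in 2 of 6 and 10 of 15. Ctss, a microglial protease, was at -2.79 (-2.51, or -4.02 without knockout cell 4). Astrocyte markers summed to 259 to 1149 CPM in knockout and 8.61 to 7907 CPM in wild-type cells, and oligodendrocyte markers to 0 to 2476 and 0 to 13691 CPM. Gene-rich wild-type cell 10 held the highest microglial and oligodendrocyte sums, 10595 and 13691 CPM, and had reads in 7 of 11 interneuron markers. Of 11 interneuron markers 5 were measured, with a median of -0.81 against gene-rich wild-type cells (-0.22 without wild-type cell 10). Against all wild-type cells their median was -0.50. The part of these transcripts in the differences above was not tested.

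Neuron class markers gave no clear split by genotype, though knockout cell 6 stood apart in layer 6 markers. Layer 5 pyramidal tract markers had a median of -0.62 against gene-rich cells, with none of 11 higher and 1 lower by 2 units. That median lay between -1.40 (without knockout cell 3) and 0.06 (without wild-type cell 2) with single cells left out, and was 0.44 against all wild-type cells. Fezf2, which specifies these neurons, was read in 4 of 6 knockout and 7 of 15 wild-type cells, and Bcl11b in 2 of 6 and 6 of 15. Layer 6 and near-projecting markers (6 of 11 measured) had a median of 0.31 against gene-rich cells, or -0.77 without knockout cell 6. That cell had reads in 8 of these 11 markers, at a sum of 2097 CPM. The other knockout cells held 0 to 253 CPM and wild-type cells at most 895 CPM. Upper-layer markers summed to 3.65 CPM in cell 6 and 348 to 761 CPM in the other knockout cells. Wild-type cells ran from 0.356 to 938 CPM. The neuron class of cell 6 was not tested. The 11 pyramidal neuron markers had a median of 0.08 against gene-rich cells, with 5 above and 6 below 0.14, the median of all measured genes. Leaving out single cells put the list median between -0.03 (without wild-type cell 10) and 0.33. Against all wild-type cells the list median was 1.695, beside 0.98 over all measured genes. The 1 pyramidal marker below 0 against all wild-type cells was Nrgn. This gene, neurogranin, a calmodulin-binding protein of pyramidal dendrites, was read in each of the 21 cells and was lower in knockout cells, which held 91.6, 152, 314, 27.2, 146 and 117 CPM. Its wild-type cells ran from 105 to 1056 CPM with a median of 493, so each knockout cell lay below the wild-type median and 2 lay below the wild-type range. The difference was -1.69 (-1.98).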

How the data were processed

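Each library came from the cytosol of 1 patched neuron, per the labels' protocols. The submitters' processing notes name STAR, Trimmomatic and featureCounts with build GRCm38; no version, setting or strand handling was found in the labels. The authors deposited whole-number read counts per gene symbol (22800), used here, and a normalized signal table (14067 symbols), used as an alternative and found to hold the counts times 1 factor per cell. 2 columns in each table matched no label and were not used. The kit adds no molecular identifiers, so shares (exact Clopper-Pearson 95% intervals) cover counting error only.

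Counts were divided by the library total over genes and taken as log2(CPM + 1). Groups came from the cell type, genotype and quality labels. The highest Spearman correlation between any 2 D1 cells was 0.41 (median 0.24), so no library appeared more than once. No animal is named, so no test was made between genotypes. The members, lists and rules were chosen with earlier results of these data known.

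Named genes reached a mean of 10 CPM with reads in 33.3% or more of a genotype's cells, kept 1 sign against all and gene-rich wild-type cells, and moved by less than 1.5 times when each of the 21 cells was left out. The 12 per direction with the largest smaller difference were taken, with the 2 members of each list farthest from the median of measured genes; mitochondrial, ribosomal RNA and predicted genes, and a few genes not reported here, were passed over. Genes whose cells do not overlap between genotypes were named after their values were seen. Gene positions and exon lengths came from the GENCODE vM21 annotation, and sequences from RefSeq. The alternatives were other library sizes (TMM), pseudocounts, filters, averages, depths and sets of cells. The calculation was tested on simulated data. Python 3.11.15, numpy 2.4.6, pandas 2.3.3, scipy 1.17.1, matplotlib 3.10.9, R 4.3.3 and edgeR 4.0.16 were used.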

Additional observations from a re-analysis of the deposited data

Results flagged for a closer look

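Of 29 groups examined for a cell far from the others of its group, 9 held one. The flagged genes were chosen for their difference and many of their values are 0, so no chance rate is given. All 9 lie among the 6 knockout D1 cells, in units of log2(CPM + 1). On the higher side, Inha was 0 in cell 6, Csnk1g2 stood at 3.41 in cell 3 and Traf3 at 2.16 in cell 4, each far below the other 5 cells. On the lower side a single cell stood above the rest for Pdia3 (4.05, cell 2), Zfp30 (0.54, cell 5), Gng10 (6.52, cell 6), Lamtor2 (6.27, cell 6) and Pts (5.20, cell 4). Cell 6 was also far below the others in the mean of long minus short genes, at 0.045.

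Llgl1 pointed in opposite directions in the 2 kinds of cell. Its difference was 6.45 in D1 cells and -1.66 in D2 cells, with every knockout cell of each kind on its own side of the wild-type mean. The difference between the kinds was not tested.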

How the results depend on the processing

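Relative to all 15 wild-type cells, 2980 genes were at least 2 log2 units higher in knockout cells and 145 lower. These counts moved with the setting: 779 and 17 with log2(CPM + 10), 1303 and 875 with gene-rich cells only, 1220 and 1419 from summed counts, 1585 and 1272 from the ratio of mean CPM, 1321 and 25 at 3 log2 units, and 1346 and 844 relative to the median of measured genes. The lower count was 1200 when only the wild-type cells were limited to 31 days (all 6 knockout cells kept, 5 of them of 32 days) and 414 with the authors' normalized values. Leaving out single cells gave 2714 to 3455 higher and 128 to 236 lower genes, the highest lower counts without knockout cell 2 (236) and cell 6 (234). Fmr1 was at -6.94 from summed counts. 3 settings were added after the data were seen: gene-rich cells with TMM sizes gave 1312 and 929 genes, gene-rich cells thinned to 1 depth 1338 and 899, and all 6 knockout cells against the 2 gene-rich wild-type cells of 31 days 1062 and 2895, with long minus short genes at 0.39.

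List medians, here relative to the median of measured genes, kept their sign except as follows. Proteasome genes were at -0.32 with gene-rich cells only, -0.47 with only the wild-type cells limited to 31 days, -0.46 from summed counts, -0.18 from mean CPM, -0.56 with the wild-type cells limited to gene-rich ones of 31 days, -0.36 with TMM and -0.26 thinned. Presynaptic genes were at -0.12 and -0.14, pyramidal markers at -0.057 and -0.083, and astrocyte markers at 0.043 and 0.030, with gene-rich cells only and with TMM added, and astrocyte markers at 0.031 when thinned. Pyramidal markers were at -0.086 from summed counts. GABA receptor genes were at -0.52 and JNK and p38 genes at -0.065 against wild-type cells of 31 days, and at -0.73 and -0.43 against the gene-rich ones of them, again with all 6 knockout cells. The latter wild-type cells also put respiratory genes at 0.071, upper-layer markers at 0.0079 and microglial markers at 0.17. Dopamine and cAMP genes were at -0.032 from summed counts and -0.22 from mean CPM, which also put postsynaptic genes at -0.00067, upper-layer markers at 0.19 and Pcmtd2 at -0.97. The cause was not tested.

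No paired analysis was possible because no test was made and the labels pair no cells. No animal is named, so genotype and animal cannot be told apart at any age. The ages overlap only at 31 days, with 1 knockout cell, so genotype and age cannot be told apart beyond that age. In addition, 6 wild-type libraries held few genes. With 6 knockout cells, 0 cells with a read allows a share of up to 45.9%.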
